A study of Mus musculus with 12 samples.

Results

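Genes of the actin cytoskeleton and of podosomes in leukocytes were examined in tumour-associated macrophages (TAMs). The 10 genes, Lcp1, Lpxn, Coro1a, Fermt3, Tln1, Vasp, Was, Pfn1, Cfl1 and Actb, were taken by symbol from the 24781 rows of the count table, and all 10 had molecules in every library. They were chosen by function and by their difference between the groups in this count table, so their levels and differences are given as a description. Calls counted for them further below reuse the values they were chosen on and are no support for a difference. TAMs came from wild-type (WT) mice bearing MC38 tumours, a mouse colon adenocarcinoma line. The mice were injected intraperitoneally with picrotoxin, which blocks the ionotropic GABA receptor, or with the solvent DMSO, from the day before inoculation onwards. On day 7, 100 CD45+CD11b+F4/80high cells were sorted from tumour for each library, giving 6 DMSO and 6 picrotoxin libraries. Per the labels the libraries were numbered within each group. The methods describe 1 mouse for each library, whereas a figure legend gives fewer mice than libraries, so some libraries may share a mouse, and p-values would then be too small. The study used WT mice of C57BL/6J or C57BL/6N background and gave age only as a range for all its mice, so strain and age are not resolved for these groups.

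Macrophages crawl and hold on to matrix through actin. Monomers bound by profilin (Pfn1) are added to filaments, cofilin (Cfl1) severs old ones, and WASP (Was) switches on the Arp2/3 complex, which starts branches. Podosomes are dot-like contacts of macrophages and related cells, with a core of branched actin surrounded by a ring of integrins and adaptors. Talin (Tln1) and kindlin-3 (Fermt3) bind integrin tails and activate them, leupaxin (Lpxn) is a paxillin relative in the ring, and L-plastin (Lcp1) bundles filaments. Vasp promotes filament elongation, and coronin-1A (Coro1a) binds filaments and Arp2/3 in blood cells. Several members have a relative that other tissues use more: Pls3, Fermt2, Wasl and Coro1b among them.

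The 250 bases before the annotated start of Lcp1, Lpxn and Pfn1 are shown because these 3 members had the widest differences in level between the groups. They are RefSeq sequences of GRCm38.p6, written 5′ to 3′ along the gene, and capitals mark the letters GGGCGG or their complement CCGCCC, to which Sp factors can bind. Lcp1 lies at chr14:75130873-75131122 on the plus strand for the first of its 2 listed starts, Lpxn at chr19:12795943-12796192 on the plus strand, and Pfn1 at chr11:70654651-70654900 on the minus strand.
Pfn1: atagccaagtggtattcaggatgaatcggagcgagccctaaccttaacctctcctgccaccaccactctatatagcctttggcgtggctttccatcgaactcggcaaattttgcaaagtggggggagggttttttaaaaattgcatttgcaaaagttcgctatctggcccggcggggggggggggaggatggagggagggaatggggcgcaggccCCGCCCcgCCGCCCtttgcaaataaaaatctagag
Lcp1: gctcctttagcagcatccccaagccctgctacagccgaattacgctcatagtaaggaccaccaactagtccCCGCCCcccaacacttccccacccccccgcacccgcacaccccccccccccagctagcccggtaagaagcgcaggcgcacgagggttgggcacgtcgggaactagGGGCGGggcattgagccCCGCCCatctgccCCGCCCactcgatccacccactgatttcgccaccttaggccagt
Lpxn: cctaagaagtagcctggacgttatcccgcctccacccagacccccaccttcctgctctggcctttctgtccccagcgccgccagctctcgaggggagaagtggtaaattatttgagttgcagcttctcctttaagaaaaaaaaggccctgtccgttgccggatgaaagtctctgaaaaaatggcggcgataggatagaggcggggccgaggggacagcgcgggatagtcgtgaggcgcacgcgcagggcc

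The stretch before Lcp1 held 4 such sites, which began 179, 74, 57 and 44 bases before the start, and that before Pfn1 held 2, at 35 and 27 bases. None was found before Lpxn. Lcp1 was higher and Pfn1 lower in the picrotoxin libraries, so the match did not go with 1 direction. RefSeq promoters of 300 bases, from 250 before to 50 after a start, were listed for 9 of the 10 members (all but Actb), with 11 starts in all. On either strand, the Sp letters stood in 5 of the 11 (those of Cfl1, Coro1a, Lcp1 and Pfn1) and in 35.7% of all 32851 promoters. The letters GAGGAA, an ETS core with flanking letters and part of the longer site of PU.1, stood in 2 of the 11 (Tln1 and Was). They stood in 28.3% of all. ETS cores with other flanking letters were not counted. The PU.1 site GAGGAAGT, the TATA box TATAAA and the CArG box of serum response factor stood in 0 of the 11, against 3.20%, 13.6% and 1.63% of all.

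Library totals ran from 219630 to 309617 molecules in DMSO and from 201697 to 257016 in picrotoxin. Markers of the sorted population were present: 12 of 12 macrophage markers were detected, with a sum of 2520 to 3816 molecules per DMSO library and 2856 to 3522 per picrotoxin library. A list of 12 fibroblast and matrix markers summed to 202 to 1339 molecules in DMSO and 272 to 506 in picrotoxin, with Fap at 0. Without Fn1, which macrophages also make, that list came to 14 to 775 molecules in DMSO, where replicates 5 and 3 held the most (775 and 188), and to 8 to 57 in picrotoxin. Of the platelet markers, which matter here because platelets are rich in kindlin-3 and talin, Itga2b, Gp9 and Gp6 were at 0 and all 6 summed to at most 4 molecules per library. Neutrophil markers gave 4 to 10 molecules per library, with S100a9, Ly6g and Retnlg at 0, and smooth muscle markers at most 5, with Tagln, Myl9, Cnn1 and Des at 0. Dendritic cell markers gave at most 7 molecules, B cell markers at most 3, endothelial markers at most 10 and epithelial markers of MC38 at most 1. T and NK cell markers gave at most 1 molecule in DMSO. In picrotoxin they gave 22 in replicate 6, mostly Gzmb at 20, and at most 2 in the other libraries. Cd3e, Cd3g, Cd8a and Gzma were at 0 in every library. The ribosomal precursor Rn45s took 10.1% ± 2.42 (SD, n = 6) of molecules in DMSO and 13.0% ± 1.32 (SD, n = 6) in picrotoxin.

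The members took 2.47% ± 0.246 (SD, n = 6) of all molecules in DMSO and 2.55% ± 0.0627 (SD, n = 6) in picrotoxin, mostly through Actb. Levels of different genes were compared as normalised molecules per kilobase of transcript, as means over the 12 libraries. Actb led at 2506 per kilobase, followed by Cfl1 at 132, Coro1a at 101, Lcp1 at 65.1 and Vasp at 36.3. Pfn1 stood at 21.3, Fermt3 at 18.9, Lpxn at 14.7, Tln1 at 14.2 and Was at 6.63 per kilobase. In this order the ranges over libraries were apart only between Actb and Cfl1 and between Tln1 and Was, while every other pair of neighbours overlapped. Lpxn and Tln1, for example, could not be ordered on this scale, since Lpxn was the higher of them in 7 of 12 libraries. In molecules, without division by length, Tln1 was above Lpxn in 12 of 12, with 1471 against 304 in all.

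TAMs carried the listed form of most families above its nearest relative. On the per-kilobase scale all 10 members exceeded their nearest paralogue in 12 of 12 libraries. In molecules this held in 12 of 12 libraries for 9 members and in 7 of 12 for Lpxn against Pxn. The widest gaps were in families whose other form is used mostly outside blood cells. Lcp1 was 73.3 times Pls3 (plastin 3), which totalled 36 molecules over the 12 libraries against 3040 for Lcp1. Fermt3 was 50.8 times Fermt2 (kindlin-2), with 605 against 16 molecules. Tln1 was 127 times Tln2, with 1471 against 17 molecules.

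The monomer-binding and severing proteins showed the same order. Cfl1 was 103 times Cfl2, a muscle form, and Pfn1 was 133 times Pfn2, a brain form that was at 0 in 9 libraries and reached 5 molecules in all. Closer relatives were the paxillin pair, in which Lpxn was 2.45 times Pxn per kilobase but had 304 against 274 molecules, the coronins, with Coro1a 2.89 times Coro1b, and the Ena/VASP pair, with Vasp 3.10 times Evl. Was was 5.97 times Wasl (N-WASP) and Actb 6.50 times Actg1, the other cytoplasmic actin. Counting favours the 3′ end of transcripts, so a level per kilobase is a rough scale. In molecules, the ratio was 2.67 for Coro1a, 2.88 for Was, 3.16 for Vasp and 6.36 for Actb, and between 37.8 (Fermt3) and 86.5 (Tln1) for the 5 wide pairs.

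**Figure D1:**
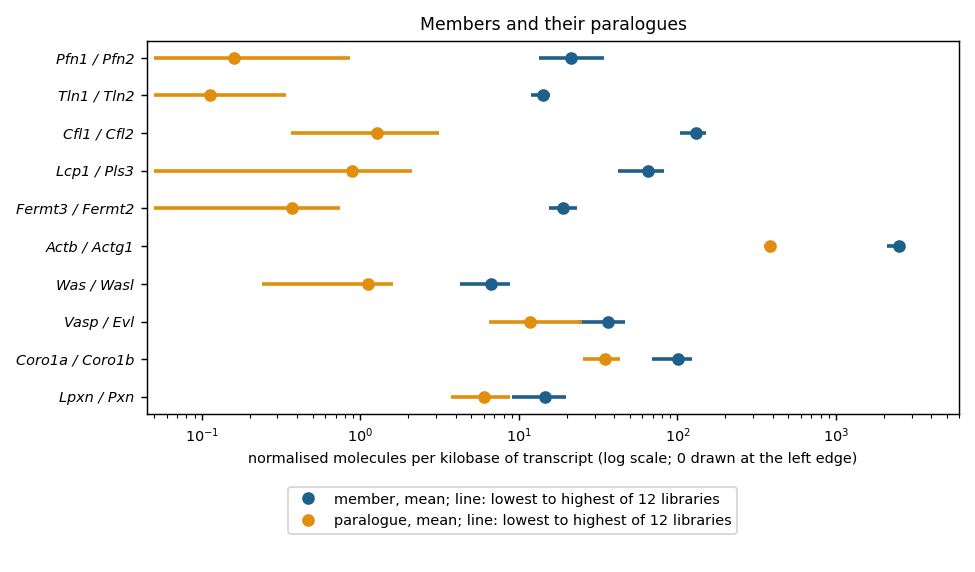
Normalised molecules per kilobase of transcript (x axis, log scale) for each member (blue) and its nearest paralogue (orange); points are means and lines run from the lowest to the highest of the 12 libraries, with 0 drawn at the left edge. Means of members lie to the right of their paralogues in all 10 pairs, and the line ranges overlap only for Vasp and Evl.

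Between the groups, the member with the widest difference was Lpxn, at 1.66 times the DMSO level in picrotoxin TAMs, followed by Lcp1 at 1.39 times. Pfn1 differed most in the other direction, at 0.676 times. The other 7 members lay between 0.919 and 1.14 times, each with a standard error that covered a large part of the difference. In bulk samples of this kind, fewer cells of a type and less RNA per cell cannot be told apart. Per-library values below are molecules divided by size factors, and log2 fold changes are picrotoxin over DMSO from the edgeR fit of all 9580 tested genes.

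Among integrin adaptors, leupaxin stood out. Lpxn ranged from 15.4 through a median of 17.9 to 27.1 normalised molecules in DMSO and from 28.7 through 31.2 to 33.6 in picrotoxin. The groups did not overlap, though the highest DMSO library, replicate 1, lay close to the lowest picrotoxin library. Lpxn was counted from 304 molecules in all, 15 to 36 per library, so its difference rests on few molecules per library. The log2 fold change was 0.73 ± 0.17 (SE), between 0.59 and 0.89 over 21 alternative settings. Tln1 had 100 to 132 molecules in DMSO (median 115) and 110 to 131 in picrotoxin (median 124), and the picrotoxin range lay inside that of DMSO. Its log2 fold change was 0.09 ± 0.10 (SE). Fermt3, which is required for integrin activation in blood cells, had 42.0 to 50.6 molecules in DMSO (median 45.9) and 40.1 to 60.5 in picrotoxin (median 51.4). Its log2 fold change was 0.15 ± 0.13 (SE), and 3 of 6 picrotoxin libraries exceeded the highest DMSO library.

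The filament bundler Lcp1 ranged from 162 through a median of 193 to 271 molecules in DMSO and from 255 through 297 to 314 in picrotoxin. All 6 picrotoxin libraries lay above the DMSO mean of 210 ± 44.9 (SD, n = 6), and 4 lay above its highest library. The overlap came from DMSO replicates 1 and 2, at 271 and 261 molecules, while DMSO replicates 3 to 6 ended at 201. The log2 fold change was 0.48 ± 0.11 (SE) over all libraries. It was 0.70 over replicates 3 to 6 alone, a subset that leaves out these 2 highest DMSO libraries, so a wider difference there is built in. When a score for matrix transcripts entered the fit of all libraries, the log2 fold change was 0.37.

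Proteins that start and extend filaments showed narrow differences. Was, the WASP of blood cells, had 9.22 to 17.9 molecules in DMSO (median 15.2) and 9.03 to 18.4 in picrotoxin (median 14.5), almost the same range. Its log2 fold change was 0.02 ± 0.23 (SE), with the same sign in 10 of 21 alternatives. Vasp had 52.2 to 99.9 molecules in DMSO (median 74.5) and 70.7 to 103 in picrotoxin (median 86.1). Its log2 fold change of 0.18 ± 0.13 (SE) was 0.06 without DMSO replicates 3 and 5, the libraries richest in matrix transcripts other than Fn1. Coro1a, which is restricted largely to blood cells, had 120 to 204 molecules in DMSO (median 169) and 152 to 217 in picrotoxin (median 183). The difference was 0.13 ± 0.12 (SE) on the log2 scale and 0.0059 without the same 2 libraries. For Coro1a and Vasp it rested more on DMSO replicate 3 than on replicate 5, which held more of these matrix transcripts. With only replicate 3 left out it was 0.05 for Coro1a and 0.10 for Vasp. With only replicate 5 left out it was 0.11 and 0.17. Whether matrix-bearing cells had a part in any of these differences was not tested.

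Of actin and its monomer-handling partners, the profilin and cofilin genes had lower fitted levels with picrotoxin, profilin by the wider margin. Pfn1 ranged from 15.5 through a median of 21.7 to 29.7 molecules in DMSO and from 11.6 through 15.3 to 16.1 in picrotoxin. All 6 picrotoxin libraries lay below the DMSO mean of 22.0 ± 4.89 (SD, n = 6) and 3 lay below its lowest library. The log2 fold change was -0.56 ± 0.20 (SE), between -0.69 and -0.47 over the alternatives. Pfn1 was counted from 230 molecules in all, so the difference rests on few molecules per library. Cfl1 had 303 to 358 molecules in DMSO (median 314) and 245 to 325 in picrotoxin (median 297), with 4 of 6 picrotoxin libraries below the lowest DMSO library and a log2 fold change of -0.12 ± 0.09 (SE). Actb had 4028 to 5054 molecules in DMSO (median 4865) and 4780 to 5034 in picrotoxin (median 4948). Its log2 fold change of 0.09 ± 0.07 (SE) was -0.01 without DMSO replicates 3 and 5, which held its lowest values of 4028 and 4227.

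**Figure D2:**
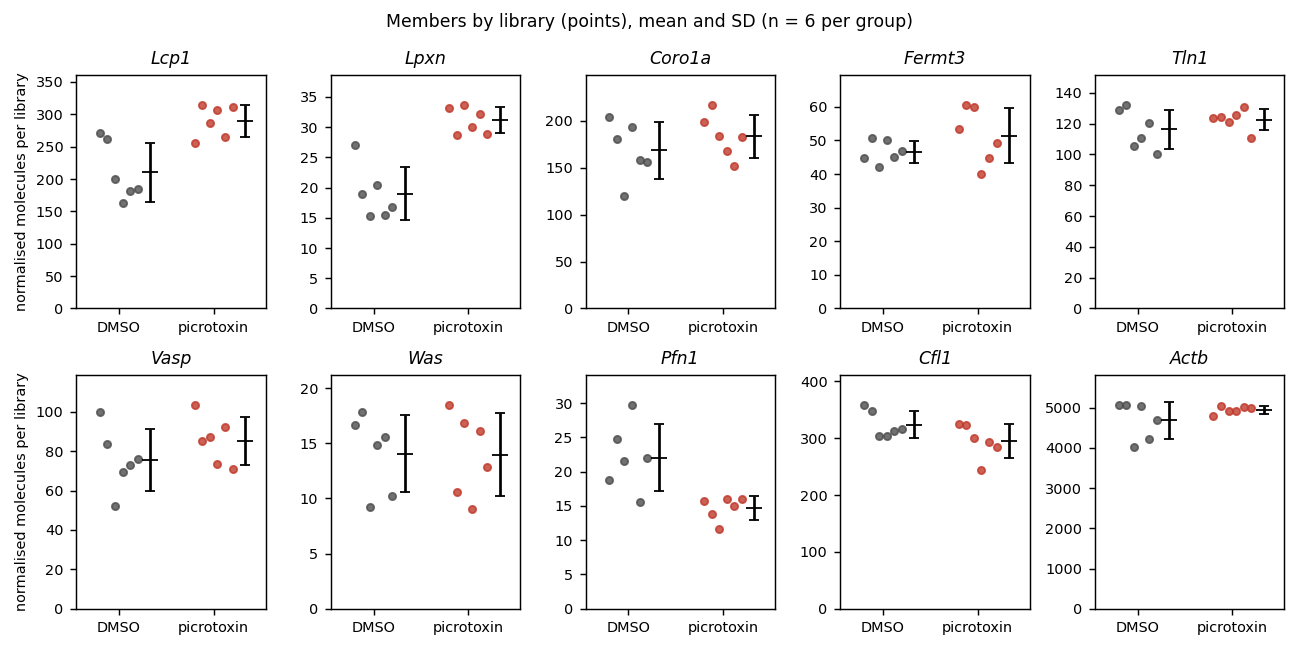
Normalised molecules per library (y axis from 0, a scale for each gene) in DMSO (grey) and picrotoxin (red) libraries; points are libraries in the order of replicate number and bars are mean and SD, n = 6 per group. Only for Lpxn do the groups not overlap, with picrotoxin at or above 28.7 and DMSO at or below 27.1 molecules.

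**Figure D3:**
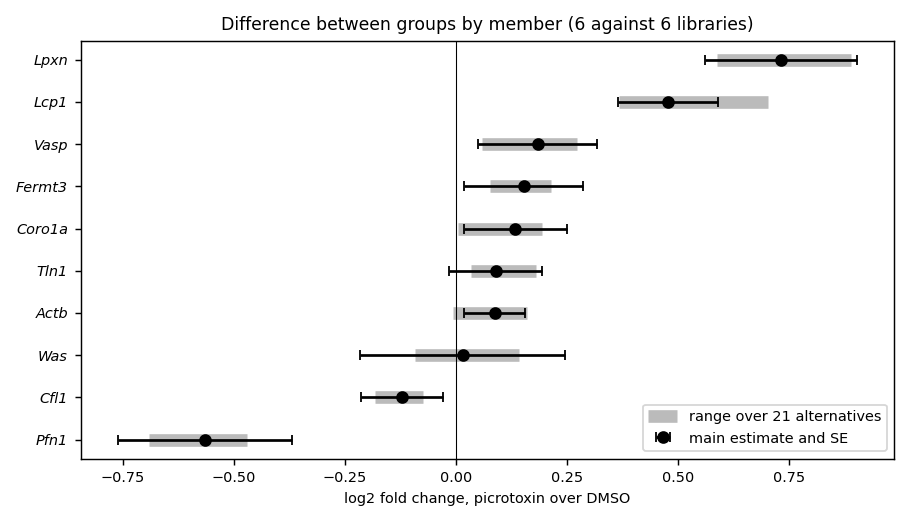
Log2 fold change of picrotoxin over DMSO (x axis) for each member, with the standard error as whiskers and the range over 21 alternative settings as grey bars. Lpxn at 0.73 and Lcp1 at 0.48 lie to the right of 0 in every alternative and Pfn1 at -0.56 to the left, while the bar of Was spans 0 and that of Actb reaches -0.01.

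In sum over the 10 members, 8 had a higher and 2 a lower fitted level with picrotoxin, and their median log2 fold change was 0.11. Over all 9580 tested genes 4709 were higher and 4871 lower, with a median of -0.01. At an unadjusted p under 0.05 in edgeR, 2 members (Lcp1 and Lpxn) were called higher and 1 (Pfn1) lower, beside 3.65% of all tested genes called higher and 4.11% called lower. The Wald test of DESeq2 gave the same 2 and 1, beside 3.82% of genes called by it in either direction. After adjustment over all genes 0 members were called, beside 0.0522% of genes in edgeR. In the 21 alternatives Lcp1 was called after adjustment in 5 and Lpxn in 4, with the other 8 members called in 0. Both were called without DMSO replicate 1, with the replicate block, over replicates 3 to 6 and among all genes with at least 1 count, and Lcp1 also without DMSO replicate 2. Over all genes, adjusted calls were 3 higher and 2 lower in the main fit. They were 6 and 19 without DMSO replicate 1, and 4 and 19 without DMSO replicate 2. With the block they were 11 and 32, and over replicates 3 to 6 they were 16 and 33. Among the 13815 genes with at least 1 count they were 14 and 67. Groups were without overlap, higher with picrotoxin, for 1 member (Lpxn) and 0.198% of genes, and lower for 0 members and 0.188% of genes. Since the members were chosen on this contrast, the calls for them, adjusted ones included, are no support for a difference. Nothing is read from these counts.

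Spread between libraries of the same group differed widely from member to member. Dividing the variance within a group by that of counting alone, averaged over the groups, gave 24.8 for Actb, 6.25 for Lcp1, 4.33 for Coro1a, 2.60 for Vasp and 2.36 for Cfl1. These 5 exceeded the upper quartile of 2.11 for the 1990 genes with a mean of at least 20 molecules, whose median was 1.41. High counts make this ratio larger for a given biological spread. The ratio was 0.96 for Tln1, 0.95 for Was, 0.75 for Fermt3, 0.69 for Pfn1 and 0.62 for Lpxn, so counting error alone covers the scatter of these between libraries. For Actb the ratio was 47.9 among DMSO libraries and 1.72 among picrotoxin libraries, and for Lcp1 10.4 and 2.10.

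The members also varied together within groups. After the group means were removed, Pearson's r over the 12 libraries had a median of 0.39 over the 45 pairs of members, with 38 above 0 and a range of -0.18 to 0.75. The same measure over all pairs of the 1990 genes had a median of 0.01, with quartiles of -0.23 and 0.26. The closest pairs were Vasp with Cfl1 at 0.75, Lpxn with Vasp at 0.74 and Coro1a with Actb at 0.73. Pfn1 stood apart, with r of 0.14 to the mean of the members, against 0.47 for Lcp1, 0.53 for Fermt3 and 0.66 to 0.85 for the other 7, though each member is part of that mean. These are descriptions over 12 libraries that share depth and cell composition, with no test.

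The libraries differed in where the members stood as a set. The mean of the members on the scaled, group-centred log2 scale was lowest in DMSO replicate 3, at -1.30, and highest in DMSO replicates 1 and 2, at 1.01 and 0.93. Matrix markers other than Fn1 took 0.0818% of molecules in DMSO replicate 3 and 0.280% in DMSO replicate 5, against 0.0064% in replicates 1 and 2. The macrophage markers took 1.10% in DMSO replicate 3, the lowest share of the 12 libraries. Without DMSO replicates 3 and 5 the median r of the members was 0.24. The 5 genes most like the mean of the members, of 1982 with a mean of at least 20, were the macrophage and B cell receptor gene Cd72 at r = 0.94, the phospholipase D family gene Pld4 at 0.93, Aif1, which encodes the actin-binding protein Iba1 of macrophages, at 0.93, the complement gene C1qb at 0.93 and Fam26f at 0.92. Of these, Pld4 had a log2 fold change of 0.24 ± 0.12 (SE) between the groups and C1qb of -0.01 ± 0.10 (SE).

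**Figure D4:**
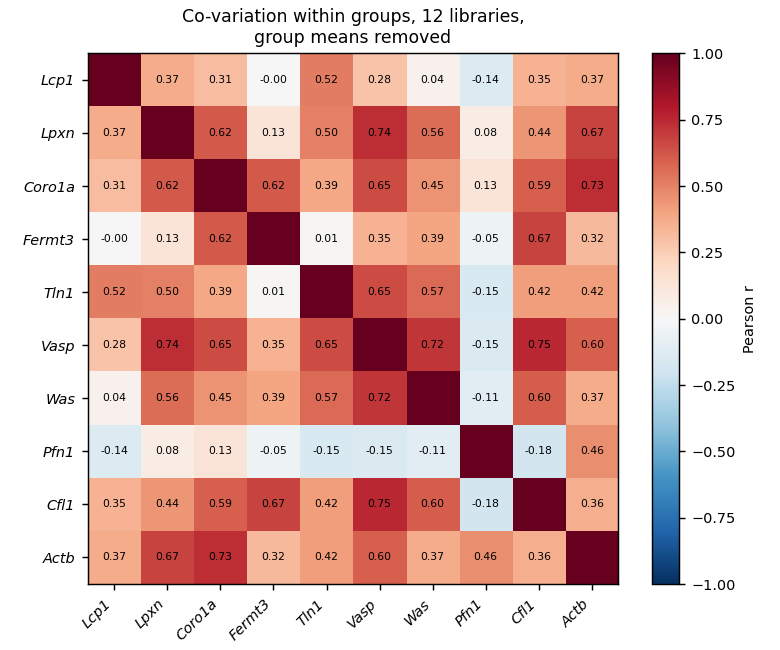
Pearson's r between members over 12 libraries after the group means were removed, from -1 (blue) to 1 (red), with the value in each cell. The darkest cells are Vasp with Cfl1 at 0.75, Lpxn with Vasp at 0.74, Coro1a with Actb at 0.73 and Vasp with Was at 0.72, and the line of Pfn1 holds the values below 0 other than the value near 0 of Lcp1 with Fermt3.

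The rest of the actin machinery was read from 7 lists of 190 genes, of which 188 were in the table and 171 were tested. At an unadjusted p under 0.05 in edgeR, 16 were higher and 14 lower with picrotoxin, 17.5% of those tested beside 7.77% of all tested genes. After adjustment 0 were called, and the Wald test of DESeq2 called 12 higher and 2 lower, 8.19% of those tested. DESeq2 called 3.82% of all tested genes, 170 higher and 196 lower. The median log2 fold change of the list genes was 0.00. The edgeR count in the lists was 13 without DMSO replicates 3 and 5 (9 higher, 4 lower), 7.74% of the 168 then tested beside 5.46% of all genes. It was 19 without DMSO replicate 6 (11.1% beside 6.60%) and 18 without picrotoxin replicate 6 (10.5% beside 6.87%). Scaled by library totals it was 9 higher and 14 lower, 13.5% beside 7.78% of all genes, of which 215 were higher and 530 lower. Adjusted p-values named below are from edgeR over all 9580 genes, and all of them are above 0.05.

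Genes of the branching machinery around WASP were found on both sides. Of 9 tested subunits of the Arp2/3 complex, 2 were higher and 0 lower at the unadjusted threshold, 22.2% beside 7.77% of all tested genes. Arpc5 averaged 82.6 ± 8.14 (SD, n = 6) molecules in DMSO and 105 ± 12.4 in picrotoxin, a log2 fold change of 0.35 ± 0.11 (SE) with an adjusted p of 0.32. Arpc2 differed by 0.17 ± 0.08 (SE). Of 29 nucleation-promoting factors and formins, 3 were higher and 4 lower, 24.1% beside the same 7.77%. Fmnl1, a formin of blood cells that sits at macrophage podosomes, was the only one of the 171 genes whose groups did not overlap. Over all tested genes the groups were without overlap for 0.198%, higher with picrotoxin, and for 0.188%, lower. Fmnl1 averaged 25.4 ± 3.72 (SD, n = 6) molecules in DMSO and 34.2 ± 2.18 in picrotoxin (log2 fold change 0.44 ± 0.15, adjusted p 0.41). Wipf1, which encodes the WASP-interacting protein WIP, differed by 0.38 ± 0.14 (SE), and the formin Diaph2 by 0.39 ± 0.18 (SE). On the lower side Brk1, a small subunit of the WAVE complex, differed by -0.34 ± 0.16 (SE). Cttn (cortactin) averaged 3.95 molecules in DMSO and Nck2 at most 5.12 in any library, so their log2 fold changes of -1.42 and -2.15 rest on very few molecules.

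Of 35 integrin adaptors and podosome ring genes, 3 were higher and 3 lower, 17.1% beside 7.77% of all tested genes. Lyn, a Src family kinase of myeloid cells, had the smallest p of all the lists. It ranged from 73.7 to 108 molecules in DMSO and from 104 to 158 in picrotoxin, with 5 of 6 picrotoxin libraries above every DMSO library, a log2 fold change of 0.44 ± 0.12 (SE) and an adjusted p of 0.24. Git2, an adaptor of paxillin family proteins, averaged 8.34 ± 3.76 (SD, n = 6) in DMSO and 14.2 ± 2.90 in picrotoxin, and Fyb, an adaptor for Vasp in leukocytes, differed by 0.26 ± 0.12 (SE). Lower were Sh3pxd2a, the podosome scaffold Tks5, by -0.78 ± 0.31 (SE), Lpp by -0.37 ± 0.17 (SE), and Parva, which averaged 2.44 molecules in DMSO and 0.321 in picrotoxin. Lpxn thus had neighbours in the podosome ring on both sides of 0.

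Of 22 tested genes for monomers and filament turnover, 0 were higher and 2 were lower. Tmsb10, which like profilin binds actin monomers, averaged 239 ± 28.7 (SD, n = 6) molecules in DMSO and 198 ± 8.10 in picrotoxin, with 5 of 6 picrotoxin libraries below the lowest DMSO library (log2 fold change -0.25 ± 0.10, adjusted p 0.47). Dstn, a close relative of cofilin, differed by -0.28 ± 0.14 (SE). These 2 stood on the same side as Pfn1 and Cfl1, but the list as a whole did not. Of its 22 tested genes, 13 had a log2 fold change above 0, and the median was 0.03. The 2 called were 9.09% of the list, beside 7.77% of all tested genes.

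Among 27 bundling, crosslinking and cortex genes, 3 were higher (Marcksl1 by 0.39 ± 0.15, Flna by 0.28 ± 0.11 and Marcks by 0.24 ± 0.12) and 3 lower. Those called were 22.2% of the list, beside 7.77% of all tested genes. Marcks was 0.09 without DMSO replicates 3 and 5. The lower ones, Tpm1, Cnn3 and Fscn1, are also abundant in fibroblasts and other mesenchymal cells. Tpm1 had its highest value, 53.3 molecules, in DMSO replicate 3 and 6.24 in DMSO replicate 1, and its log2 fold change of -0.84 ± 0.33 (SE) was -0.41 without DMSO replicates 3 and 5. Fscn1 went from -1.11 to 0.04 without those libraries, whereas Cnn3 stayed close, at -0.60 with them and -0.55 without. Of 12 myosins, 0 were higher and 1 was lower, 8.33% beside 7.77% of all tested genes. This was Myo10 of filopodia, by -1.26 ± 0.41 (SE) with an adjusted p of 0.34 and -0.78 without the same libraries. The part of matrix-bearing cells in these differences was not tested.

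**Figure D5:**
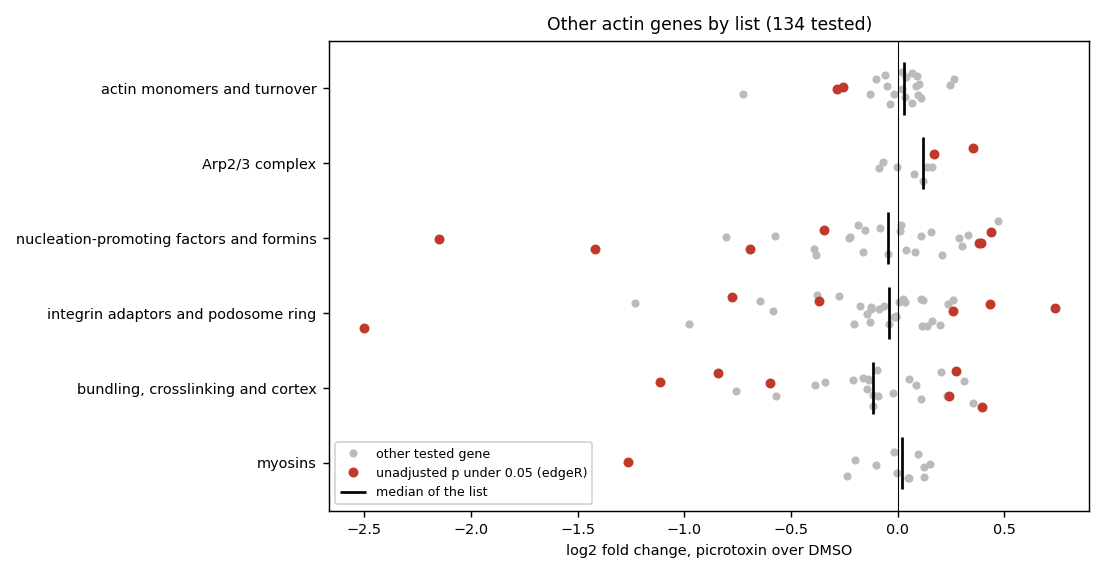
Log2 fold change of picrotoxin over DMSO (x axis) for the 134 tested genes of 6 actin lists (points, spread vertically for sight), with genes at an unadjusted edgeR p under 0.05 in red and the median of each list as a black line. Red points lie on both sides of 0, 11 above and 13 below, and the list medians lie between -0.11 and 0.12.

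The positions of the members bear on how far their counts can be trusted. In GENCODE M21 on GRCm38, Lpxn (chr19:12796193-12833807, plus strand), Vasp (chr7:19256929-19271817, minus strand) and Pfn1 (chr11:70651850-70654644, minus strand) shared no exon with another gene and no stretch of 50 bases or more at 90% identity with another transcript. Fermt3 (chr19:6998958-7019469, minus strand) overlapped exons of Trpt1 on the other strand, and Tln1 (chr4:43531519-43562691, minus strand) those of Creb3. Coro1a (chr7:126699773-126707787, minus strand) overlapped Bola2. Whether counting used strand is not given in the sources used here. Trpt1 had at most 1 molecule per library, Creb3 6 to 18 and Bola2 16 to 37, against at least 117 for Coro1a.

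Lcp1 (chr14:75131101-75230842, plus strand) overlapped exons of 2 antisense genes, Gm15628 and Gm15629 (not analysed here), and shared stretches with 2 pseudogenes. Cfl1 (chr19:5490455-5495201, plus strand) overlapped Snx32, which had at most 1 molecule, and shared stretches with transcripts of 136 other genes, 132 of them within its last 300 bases, towards which oligo-dT priming leans. For Was (chrX:8081453-8090498, minus strand) the number was 740, with 677 in the last 300 bases. Actb (chr5:142903115-142906754, minus strand) shared stretches with 4 genes, Actg1 among them, and 0 lay in its last 300 bases. The handling of reads with several matches in the genome is not given in the sources used here. In respect of shared stretches, which were sought among GENCODE transcripts only, the counts of Was and Cfl1 are thus the least certain.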

How the data were processed

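RNA of 100 sorted TAMs per library was fragmented by heat and copied with a barcoded oligo-dT primer, which favours the 3′ end. The authors mapped reads to mm10 with STAR and deposited, for each gene symbol, raw counts of molecules. Of 24781 rows, 10966 had no molecule and 26 held a date in place of a symbol. Columns not used numbered 0.

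Groups followed the labels, 6 libraries each. Genes with a mean normalised count above 1 were tested (9580) in edgeR 4.0.16 (quasi-likelihood F test, TMM scaling), and p-values were adjusted by Benjamini and Hochberg across all tested genes. DESeq2 1.42.0 (Wald test, unadjusted p under 0.05, mean above 1), the rule of the study, was the alternative and gave the size factors. R was 4.3.3. Scripts were tested on simulated data. Shared stretches came from BLAST+ on GENCODE M21 transcripts. Precision is set by library totals, and a count of 0 allows up to 3 molecules, by counting error alone.

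The members, lists and tests were chosen with earlier results of these data known. Named were all members and their paralogues, up to 3 genes per list and direction with the smallest unadjusted p under 0.05, and the 5 genes most like the members. The genes of 1 of the 7 actin lists enter the counts over all lists but are not reported here. Alternatives were other scaling, filters, each library left out, a replicate block, replicates 3 to 6, a matrix covariate and the Rn45s row left out. All fold changes were also refitted without DMSO replicates 3 and 5, the libraries richest in matrix transcripts other than Fn1 in these same data. That refit was therefore not independent of the data. Co-variation without these 2 libraries was chosen after seeing the data.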

Additional observations from a re-analysis of the deposited data

Results flagged for a closer look

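Members and named list genes were screened for single libraries at a distance from the remaining 5 in the group. Of 74 such comparisons 2 stood out, 0 of them among the members, where 3.7 are to be expected at 1 in 20. Nck2 had 2.14 normalised molecules in picrotoxin replicate 6 and 0 in the other 5 picrotoxin libraries. Myo10 had 26.5 normalised molecules in picrotoxin replicate 5, whereas the next library had 9.03 and the lowest 1.07. Without picrotoxin replicate 5 the log2 fold change of Myo10 was -2.08.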

How the results depend on the processing

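The log2 fold changes of the members moved by less than their spread between libraries in 210 of 210 alternative values, and their median, 0.11, lay between 0.03 (without DMSO replicates 3 and 5) and 0.15 (replicates 3 to 6). That spread is wide beside the smaller differences. Was kept its sign in 10 of 21 alternatives. Without DMSO replicates 3 and 5, Coro1a went from 0.13 to 0.0059 and Actb from 0.09 to -0.01. The 30 list genes at an unadjusted p under 0.05 became 14 with DESeq2, 18 with a mean above 10, 13 without DMSO replicates 3 and 5 and 16 with a matrix covariate, and 18 to 30 with 1 library left out. With a mean above 10 the share was 14.0% of list genes tested, beside 10.6% of all genes tested. With the matrix covariate it was 9.36% beside 5.89%. Adjusted calls in the lists, 0 in edgeR, were 2 among all genes with at least 1 count, 1 over replicates 3 to 6 and 2 with the replicate block (Lyn and Myo10), and 0 to 1 with 1 library left out. With the replicate block the lists gave 28 at the unadjusted threshold, but the numbers did not pair the libraries: same-number correlations of deviations lay between -0.0156 and 0.0462, and 0 of 6 numbers had their own as the highest. The rule of the study called 366 genes in all, 233 with a mean above 10, 101 with the replicate block, 744 with edgeR and 264 to 408 with 1 library left out. The median r of members, 0.39, was 0.24 without DMSO replicates 3 and 5 and 0.31 to 0.49 with 1 library left out. Of the named list genes, Fscn1 changed sign, to 0.039 without DMSO replicates 3 and 5. The causes were not tested. Genes below about 20 molecules per library, Pfn1 and Was included, are limited by counting, as is Lpxn in DMSO, with a mean of 19.0.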
